A study of Mus musculus with 2 samples.

Results

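The lysosome of day-6 mouse skin wounds was described by 41 genes of its hydrolases and proton pump, chosen by symbol among 33696 genes, and all 41 were found in the files. They were 9 cathepsins, 11 other hydrolases or their cofactors, 5 genes of membrane proteins and sterol transfer, 13 genes of the proton pump and its accessory proteins, and 3 transcription factors of the MiT/TFE family. The series asks how the senescence response of a healing wound differs with age. Its aged group was a single droplet 3′ single-cell RNA library of wild-type male C57BL/6 mice of 24 months, and its young group a single library of the same genotype, sex and strain at 2 months. In both, wounds of 10 mm through the whole thickness of the back skin were taken on day 6, and several mice were pooled into 1 suspension, digested with enzymes and cleared of red cells before loading. Neither age has a replicate library, so no p-value is given between ages, and what comes with age cannot be told apart from what comes with the mice pooled or the preparation of a library.

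Lysosomes break down proteins, lipids and sugar chains with acid hydrolases, among which the cathepsins are the main proteases. The V-ATPase pumps protons across the membrane: its V1 sector in the cytosol uses ATP, and its V0 sector in the membrane carries the protons. Factors of the MiT/TFE family bind E-box sequences in the promoters of many lysosomal genes. Macrophages use lysosomes to digest what they engulf, and osteoclasts release acid and cathepsin K outwards to resorb bone.

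The promoters show which of the genes share the E-box that these factors bind. Promoters from 250 bases before to 50 after the start (RefSeq table, GRCm38.p6) were matched for 34 of the 41 genes by symbol. Either strand of the motif GTCACGTG, which contains the shorter E-box CACGTG, was found in 9 of the 34, or 26.5%, against 2.55% of 27025 genes and 2.25% of 32851 promoters in the whole table. CACGTG alone was found in 12 of 34, or 35.3%, against 8.09% of all genes. The motif TCATGTGA, the M-box form that MITF binds, was found in 4 of 34, or 11.8%, against 1.15% of all genes. A match describes the letters only and shows no binding. The copies of GTCACGTG shown began between 5 and 196 bases before the start. Windows of 30 bases are given 5′ to 3′ on the strand of the gene, with the motif, in either orientation, in capitals, because they group the genes by a feature that the expression values did not choose. For Ctsa, Ctsd and Mcoln1, which hold the motif at more than 1 place, a single window is given.
Ctsd, chr7:142387907-142387936, minus strand: cgcccgcgtctCACGTGACccgttgagggc
Ctsa, chr2:164833748-164833777, plus strand: atgagcaaactGTCACGTGatgcagatgct
Gla, chrX:134601183-134601212, minus strand: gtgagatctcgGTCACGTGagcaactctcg
Glb1, chr9:114401017-114401046, plus strand: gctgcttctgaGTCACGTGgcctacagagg
Lgmn, chr12:102439125-102439154, minus strand: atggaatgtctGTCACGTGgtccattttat
Lamp1, chr8:13159122-13159151, plus strand: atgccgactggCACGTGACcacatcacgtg
Mcoln1, chr8:3500435-3500464, plus strand: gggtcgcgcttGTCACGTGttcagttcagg
Atp6v0b, chr4:117887349-117887378, minus strand: tgtgcgcggggGTCACGTGgggtcggcgca
Atp6v0d1, chr8:105566051-105566080, minus strand: gccctactgcgGTCACGTGagacgcggtgc
The other motif stood in Acp5, Atp6v0c and Ctss, and also in Gla.
Acp5, chr9:22130671-22130700, minus strand: aagtccagtgcTCACATGAcccaaggggag
Atp6v0c, chr17:24169449-24169478, minus strand: gcggggacagaTCATGTGAcgcgagcgcgg
Ctss, chr3:95526793-95526822, plus strand: ttgtggatgctTCATGTGAcaagctccgat

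Cells were sorted in silico by 15 marker lists that hold no lysosomal gene. After filtering, 4210 aged and 4661 young cells remained, with medians of 13776.5 and 15566 unique molecular identifiers (UMIs, counted transcripts) per cell, and the libraries shared 3 barcodes. Macrophage-gated cells numbered 940 in the aged and 559 in the young library, or 22.3% and 12.0% of cells. Osteoclast-like cells numbered 8 aged and 31 young, fibroblast-gated cells 1481 and 1585, neutrophil-gated cells 964 and 1366, and monocyte-gated cells 210 and 259. T/NK-gated cells numbered 35 and 318, dendritic 38 and 17, and endothelial 56 and 88, while 10.7% of aged and 7.34% of young cells fell below the gate and stayed without a class. The macrophage list summed to 10224 aged and 9865 young UMIs per 1000000 UMIs of the class (CPM) in macrophages, against 118 and 111 CPM in fibroblasts. Such sums follow from the gate, which sorts by the same lists, and are no separate check of the classes. All levels below are CPM of UMIs summed over a class, with 95% intervals that cover counting error only. UMIs at the 3′ end are not scaled to gene length, so levels are compared between classes and libraries and not between genes.

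Macrophages and osteoclast-like cells gave the largest share of their transcripts to the 41 genes. In macrophages that share was 2.54% of UMIs in the aged and 2.58% in the young library, and in osteoclast-like cells 2.17% and 2.53%. Monocytes followed with 1.23% and 1.33%, then neutrophils with 0.833% and 0.702%, dendritic cells with 0.701% and 0.717%, and fibroblasts with 0.535% and 0.627%. Endothelial cells had 0.410% and 0.405%, and T/NK cells, the lowest, 0.224% and 0.218%. The named classes had the same order in both libraries but for neutrophils and dendritic cells, since dendritic cells stood above neutrophils in the young one. The share also varied from cell to cell: in macrophages its lower and upper quartiles were 1.87% and 2.92% in the aged and 1.94% and 2.92% in the young library.

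The class with the highest level differed between the 41 genes, partly by role. Among 8 named classes, 13 genes had their highest level in osteoclast-like cells in both libraries, and 14 in macrophages. The share of all genes highest in each class was not counted, so these counts do not set the 41 apart from other genes. The osteoclast-like levels rest on 8 aged and 31 young cells. The 13 were mostly of the pump: Atp6v0b, Atp6v0c, Atp6v0d2, Atp6v1a, Atp6v1b2, Atp6v1c1, Atp6v1d and the accessory Atp6ap2, beside Acp5, Ctsk, Gusb, Npc2, which carries cholesterol inside the lysosome, and Mcoln1, a calcium channel. The 14 of macrophages were mostly hydrolases: Hexa, Psap, Lgmn, Lipa, Acp2, Ctsa, Ctsb, Ctsd, Ctsl and Ctss, with Lamp1, Atp6v0d1, Atp6v1h and Atp6ap1. Gla, Neu1, Lamp2 and Tfeb were highest in neutrophils, Tfec in monocytes, Atp6v0a1 in dendritic cells and Ctsf in fibroblasts, and the other 7 differed between libraries. Some of these were near ties. Osteoclast-like over macrophage folds were 1.68 (0.717 to 3.36) aged and 1.11 (0.687 to 1.72) young for Mcoln1. For Atp6ap1 they were 0.988 (0.686 to 1.38) and 0.931 (0.788 to 1.09). Tfec had macrophage over monocyte folds of 0.966 (0.843 to 1.11) and 0.896 (0.775 to 1.04). Hexa, the α subunit of hexosaminidase, was at 271 aged and 272 young CPM in macrophages and at 78.0 and 93.5 CPM in fibroblasts. Neu1, the lysosomal neuraminidase, was at 101 and 70.2 CPM in neutrophils, against 70.4 and 68.8 CPM in macrophages. Lamp2, which also serves chaperone-mediated autophagy, was at 854 and 738 CPM in neutrophils, against 471 and 452 CPM in macrophages.

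**Figure D1:**
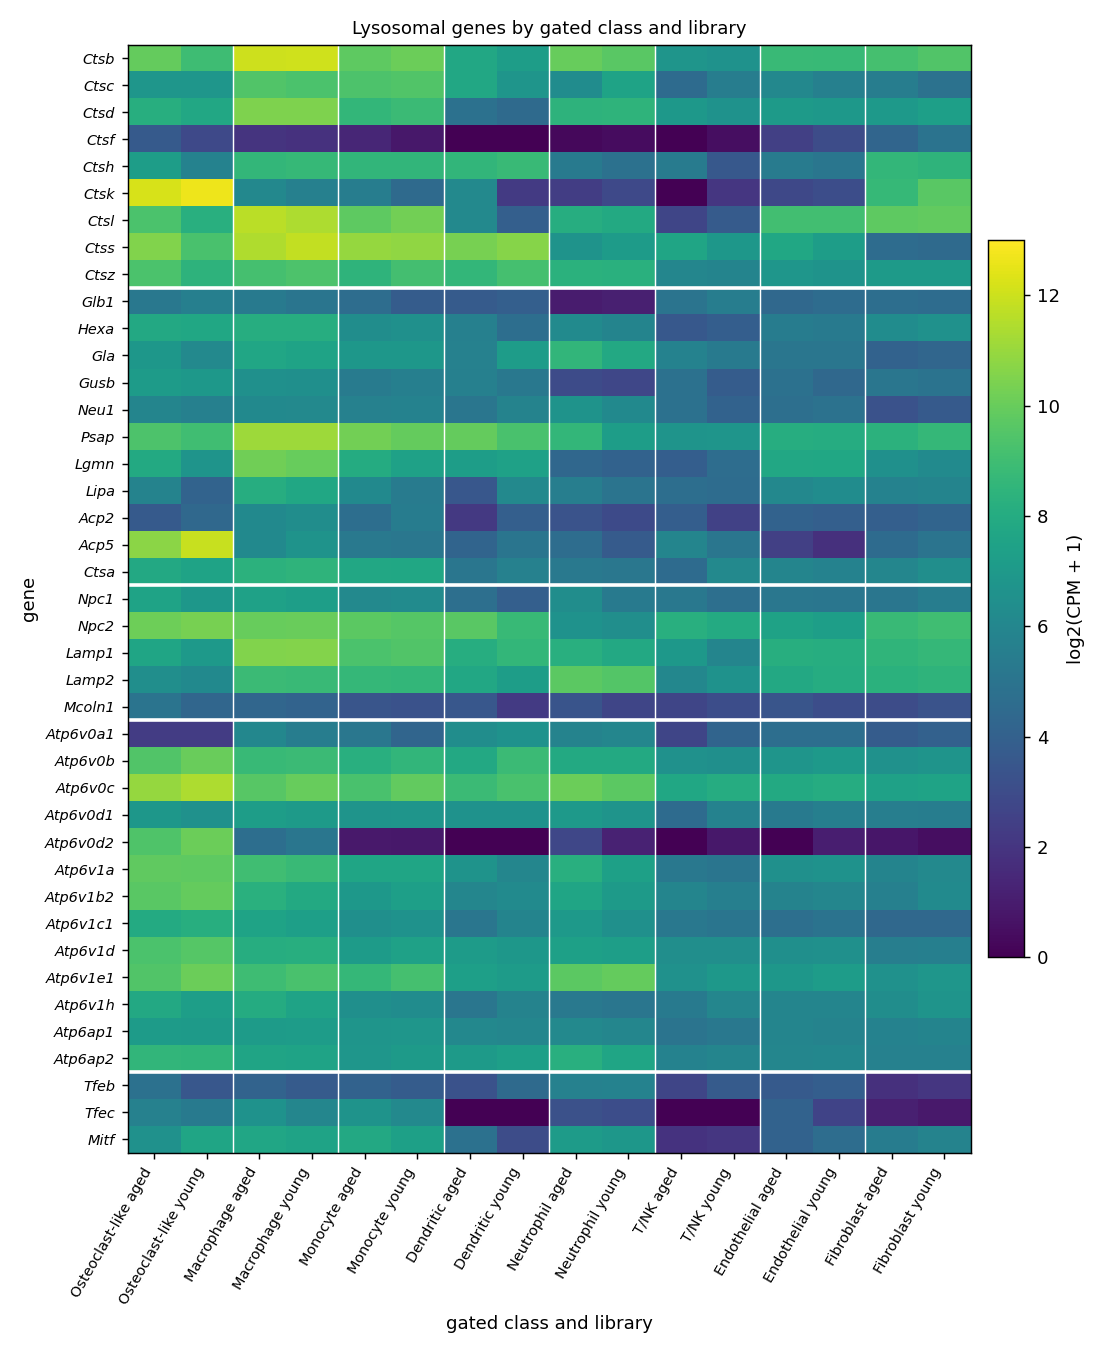
Level of each of the 41 genes as log2(CPM + 1), with genes in rows by role and gated classes in columns, aged left of young in each pair. Ctsk, Acp5 and Atp6v0d2 stand out in the osteoclast-like columns, and most other cathepsins and Psap in the macrophage columns.

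Macrophages exceeded fibroblasts in nearly every lysosomal gene. By at least 2-fold in both libraries, 34 of the 41 were higher in macrophages and 2 were lower, against 16.4% of all genes higher and 27.5% lower in that comparison. The median fold over the 41 was 4.93 in the aged and 3.87 in the young library. Ctss, the cathepsin that processes the invariant chain in antigen presentation, was 119-fold higher in the aged and 162-fold higher in the young library, with 2812 CPM in aged macrophages against 23.5 CPM in aged fibroblasts, and 3533 CPM in young macrophages against 21.8 CPM in young fibroblasts. Lgmn, an asparagine-specific protease that matures cathepsins, was 12.6-fold and 13.7-fold higher, and Psap, the precursor of the saposins that help break down sphingolipids, 6.71-fold and 5.46-fold. The summed V-ATPase genes were 4.84-fold and 4.47-fold higher. The 5 genes that passed 2-fold in neither direction were Glb1, Lamp2, Mcoln1, Ctsh and Atp6v1h. The lower genes were Ctsk and Ctsf, whose macrophage levels were 0.160 and 0.0610 times the fibroblast level for Ctsk, and 0.163 and 0.0873 times for Ctsf, in the aged and the young library.

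Macrophages also stood above monocytes, though less far. Of the 41 genes, 11 were at least 2-fold higher in macrophages in both libraries and 0 were lower, against 7.45% of all genes higher and 3.41% lower. They included Lgmn at 4.51-fold in the aged and 5.87-fold in the young library, Lipa, the lysosomal acid lipase, at 3.82-fold and 5.10-fold, Ctsb at 4.71-fold and 3.99-fold, and Ctsl at 3.71-fold and 2.25-fold. Atp6v0d2, a V0 subunit known from osteoclasts and some macrophages, was 30.5-fold and 41.9-fold higher, on 2 aged and 3 young monocyte UMIs. The summed MiT/TFE factors were at 322 aged and 257 young CPM in macrophages against 348 and 249 CPM in monocytes, a fold of 0.923 and 1.03, while the summed hydrolases other than cathepsins had a fold of 2.24 and 2.51.

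Neutrophils had lower summed hydrolases than macrophages, but a summed proton pump near the level of macrophages, though most single pump genes were lower. Of the 41 genes, 24 were at least 2-fold lower in neutrophils than in macrophages in both libraries, against 47.4% of all genes, and 1 was higher, against 11.8% of all genes. The summed cathepsins were at 0.162 times the macrophage level in the aged and 0.149 times in the young library, while the summed V-ATPase genes were at 0.933 and 0.777 times. Above the macrophage level in both libraries were Atp6v1e1 at 1.71 and 1.60 times and Atp6ap2 at 1.52 and 1.06 times. Atp6v0c was at 1.40 and 0.821 times and Atp6v0a1 at 0.847 and 1.39 times. The other pump genes were below it in both, such as Atp6v0b at 0.547 and 0.515 times and Atp6v1h at 0.146 and 0.180 times. The gene that was higher was Tfeb, the MiT/TFE member best known for driving lysosome formation, at 50.8 CPM in aged neutrophils against 16.5 CPM in aged macrophages, and at 53.0 CPM in young neutrophils against 12.5 CPM in young macrophages. Dendritic cells had 26 members lower than macrophages and 0 higher, against 21.0% and 8.12% of all genes. Endothelial cells had 5 members higher than fibroblasts, among them Tfeb at 4.81-fold in the aged and 4.39-fold in the young library, and 6 lower, against 17.5% and 16.8% of all genes.

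Osteoclast-like cells had another lysosomal profile than macrophages. By at least 2-fold in both libraries, 7 of the 41 genes were higher in osteoclast-like cells and 12 were lower, against 11.4% and 15.5% of all genes. Ctsk, the collagen-cleaving cathepsin of osteoclasts, was at 4712 CPM (4450 to 4986) in aged osteoclast-like cells against 66.2 CPM in aged macrophages, and at 6598 CPM (6457 to 6742) in young osteoclast-like cells against 49.4 CPM in young macrophages, or 71.1-fold and 133-fold. Acp5, the tartrate-resistant acid phosphatase used to stain osteoclasts, was at 1698 CPM in osteoclast-like cells against 70.0 CPM in macrophages of the aged library, and at 3844 CPM against 102 CPM in the young library, or 24.3-fold and 37.8-fold. Atp6v0d2, at 678 aged and 1096 young CPM in osteoclast-like cells, was 27.1-fold (22.5 to 32.6) and 33.3-fold (29.6 to 37.5) higher.

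Other pump genes were higher too in osteoclast-like cells. Atp6v1b2, an ATP-binding V1 subunit, was 2.73-fold higher in the aged and 4.09-fold higher in the young library, Atp6v1d, of the V1 stalk, 2.34-fold and 2.70-fold, and Atp6v0c, the proton-carrying ring of V0, 2.51-fold and 2.63-fold. Atp6v0a1, the a1 form of the V0 a subunit, went the other way at 0.0605 and 0.0887 times the macrophage level, on 1 aged and 5 young UMIs. Summed over the 13 pump genes, osteoclast-like cells had 7488 CPM against 3801 CPM in macrophages of the aged library, and 9536 CPM against 3949 CPM in the young library. Ctsf was also among the higher genes, but on 3 aged and 8 young UMIs and with intervals that reach below 1.

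Many digestive proteases of macrophages were low in osteoclast-like cells. Ctsb was at 0.236 times the macrophage level in the aged and 0.116 times in the young library, Ctsl at 0.196 and 0.107, Ctsd at 0.194 and 0.153, and Lgmn at 0.208 and 0.104. Lamp1, a main protein of the lysosomal membrane, was at 0.136 and 0.0849, and Lipa at 0.199 and 0.0782. Of the 9 genes with GTCACGTG, 0 were higher and 3 (Ctsd, Lamp1 and Lgmn) lower in osteoclast-like cells, against 11.4% and 15.5% of all genes. In macrophages over fibroblasts 7 of the 9 were higher, against 34 of all 41 members and 16.4% of all genes. Of the 4 with TCATGTGA, 2 (Acp5 and Atp6v0c) were higher in osteoclast-like cells and all 4 in macrophages over fibroblasts.

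**Figure D2:**
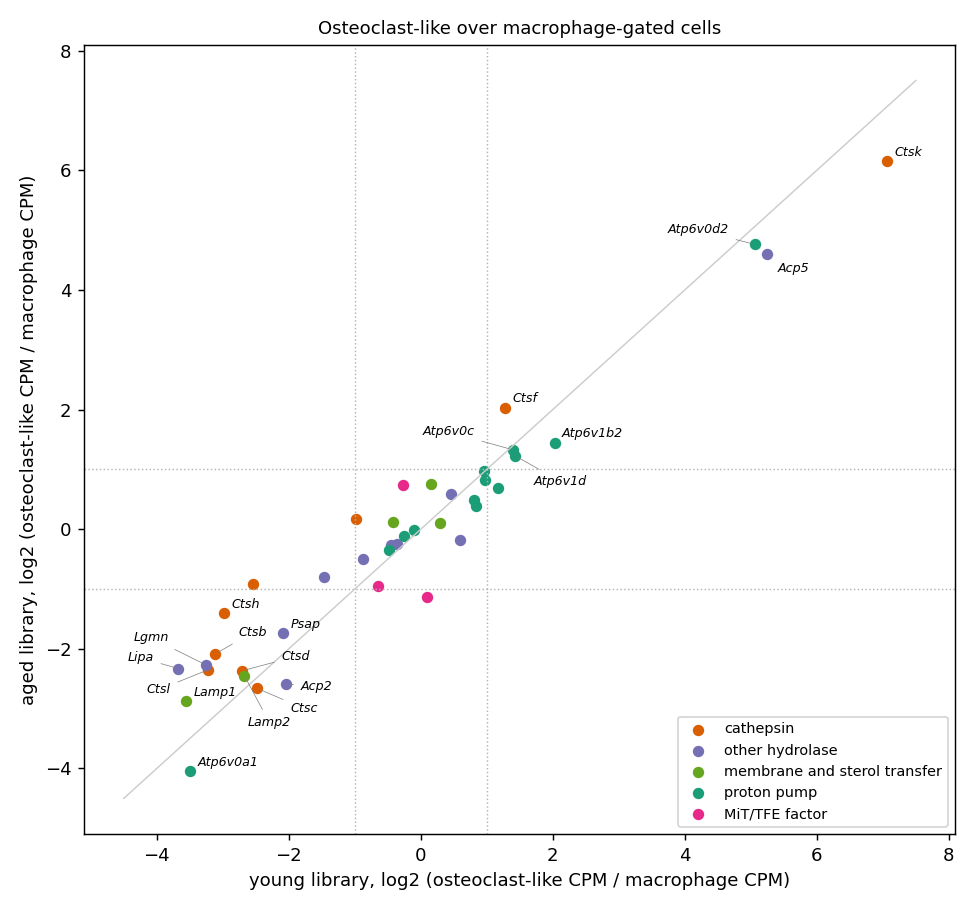
Osteoclast-like over macrophage CPM of each gene on a log2 scale, in the aged library (vertical) and the young library (horizontal), colored by role. Dotted lines mark 2-fold, the 19 genes past it in both libraries carry names, and Ctsk, Acp5 and Atp6v0d2 lie farthest up at 24.3-fold or more.

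The osteoclast-like class was small and, in the aged library, mixed. Of its 12 markers, 10 were detected in the aged and 11 in the young cells. Calcr, the calcitonin receptor, was at 0 in both, and Oscar was at 0 in the aged cells. Of the 8 aged cells, 4 held between 36 and 186 Acp5 UMIs, and the other 4 held at most 2 Acp5 UMIs with 0 Ctsk and 0 Atp6v0d2. Those other 4 each carried between 1 and 6 UMIs of the dendritic list. Of the 31 young cells, 28 held between 39 and 520 Acp5 UMIs and 3 held 0. Per 10000 UMIs of a cell, the medians were 3.52 aged and 28.0 young for Acp5, 2.79 and 51.1 for Ctsk, and 2.16 and 8.33 for Atp6v0d2, and the ranges of the ages overlapped for each gene.

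**Figure D3:**
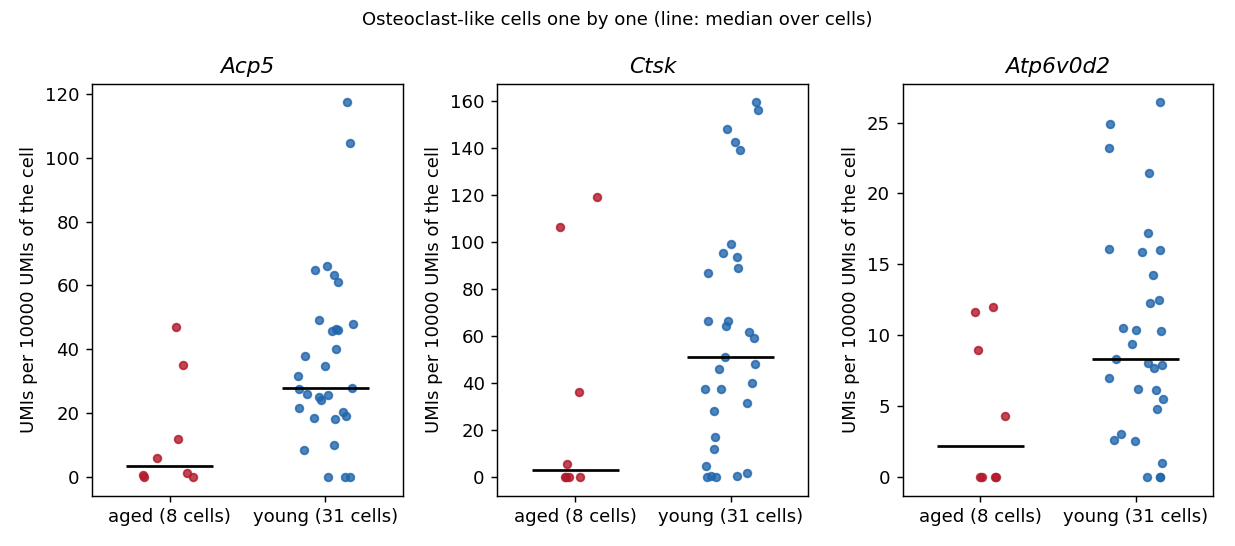
Acp5, Ctsk and Atp6v0d2 in single osteoclast-like cells, as UMIs per 10000 UMIs of the cell, 8 aged cells left and 31 young cells right, with a line at the median. In each panel 4 aged cells lie near 0, and the highest young cell lies above the highest aged cell.

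Summed over the class, 12 of 39 measured members were at least 1.5-fold higher in aged osteoclast-like cells and 5 were lower, against 22.2% and 20% of all genes, and 10 were higher and 9 lower with TMM scaling (trimmed mean of M-values, which sets the bulk of genes level between libraries). Genes counted between ages had at least 20 UMIs over both libraries. Here and below, shares of all genes are given only without TMM scaling. TMM scaling moves all genes of a class alike, so counts with it cannot be set against those shares. Acp5 was at 1698 CPM in the aged and 3844 CPM in the young cells, a ratio of 0.442 (0.399 to 0.487), whereas some macrophage cathepsins were higher in the aged cells. Ctss was at 1482 and 606 CPM, a ratio of 2.45 (2.16 to 2.77), and Ctsh at 149 and 52.6 CPM, a ratio of 2.83. Gpnmb, a lysosomal glycoprotein outside the 41, was at 670 CPM in the aged and 22.3 CPM in the young cells. The neutrophil list summed to 15.7 aged and 1897 young CPM in these cells. What part the neutrophil-list UMIs, or the 4 aged cells without Ctsk, had in these ratios was not tested.

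Over all cells of a library, most of the 41 genes were close at both ages. Of the 41, 1 was at least 1.5-fold higher and 4 were at least 1.5-fold lower in the aged library, against 11.0% and 10.5% of all genes, and the median log2 ratio was 0.00, or -0.11 with TMM scaling. With TMM scaling, which shifts all cells by -0.11 on the log2 scale, 0 were higher and 5 lower. The lower genes were Acp5 at 33.2 aged and 87.9 young CPM, a ratio of 0.378 (0.363 to 0.393), Atp6v0d2 at 6.15 and 18.5 CPM, a ratio of 0.332 (0.304 to 0.363), Ctsk at 325 and 609 CPM, a ratio of 0.534 (0.528 to 0.541), and Ctsf at 13.3 and 20.4 CPM, a ratio of 0.653 (0.611 to 0.698). Tfec, a MiT/TFE factor of myeloid cells, was higher at 19.7 and 12.6 CPM, a ratio of 1.57 (1.47 to 1.68), and 1.45 with TMM scaling. In such sums, fewer cells of a type and less RNA per cell cannot be told apart.

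These 5 genes sat in different cells. Osteoclast-like cells, at 0.190% of aged and 0.665% of young cells, held 12.1% of the aged and 49.3% of the young Acp5 UMIs, and 26.1% and 66.8% of those of Atp6v0d2. Fibroblasts held 47.9% and 23.0% of the Acp5 UMIs. Macrophages held 52.6% of the aged and 17.0% of the young Atp6v0d2 UMIs, and 64.2% and 46.5% of those of Tfec. Osteoclast-like cells held 3.43% and 12.2% of Ctsk, against 91.3% and 85.1% in fibroblasts, which also held at least 94.5% of Ctsf in each library. Without osteoclast-like cells, an alternative added after the values were seen, the ratio was 0.649 for Acp5, 0.733 for Atp6v0d2 and 0.583 for Ctsk. With each class held at its share of the young library's UMIs, also added later, it was 0.539 for Acp5, 0.629 for Atp6v0d2, 0.549 for Ctsk, 0.597 for Ctsf and 1.53 for Tfec. The direction of all 5 was the same in both alternatives. The size moved by more than 1.5 times for Acp5 without the osteoclast-like cells, and for Atp6v0d2 in both alternatives. In the second alternative the aged level of osteoclast-like cells rests on 8 cells. What part the class shares had in these ratios was not tested.

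**Figure D4:**
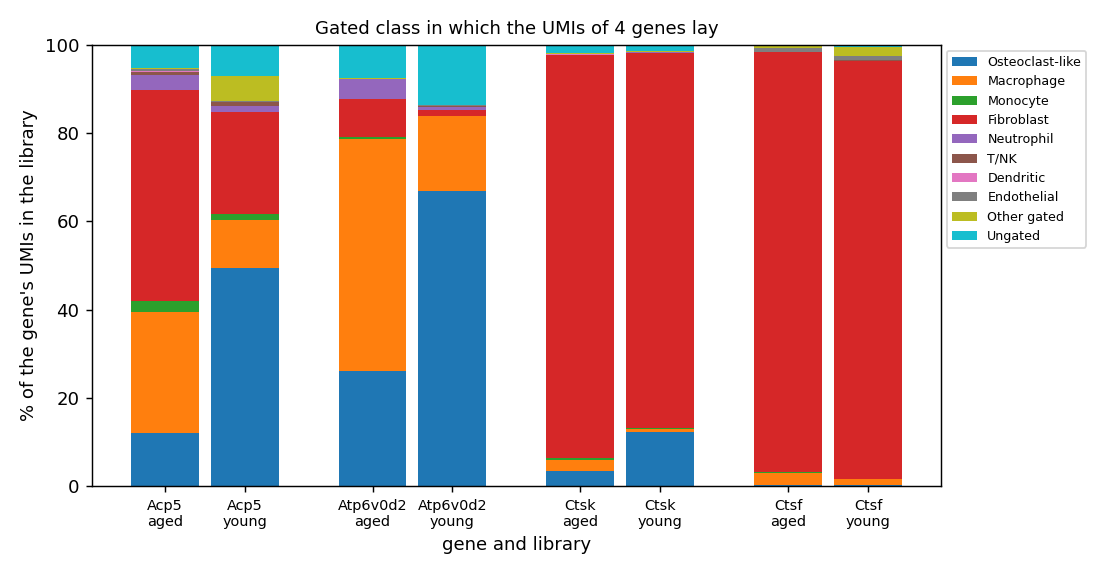
Share of the UMIs of Acp5, Atp6v0d2, Ctsk and Ctsf that lay in each gated class, in percent of the gene's UMIs in the library, aged bar left of young. Osteoclast-like cells take 12.1% of the aged and 49.3% of the young Acp5 bar, and fibroblasts 85.1% or more of each Ctsk and Ctsf bar.

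In fibroblasts, the lysosomal genes as a group were slightly lower in the aged library, and Ctsk was the gene with the lowest ratio. The median log2 ratio of the 41 was -0.16, and -0.26 with TMM scaling, while that of all genes was 0.09. By 1.5-fold, 2 were higher and 2 lower, against 11.7% and 8.31% of all genes, and with TMM scaling 1 was higher and 4 lower. Ctsk was at 413 CPM (408 to 417) in aged and 811 CPM (804 to 818) in young fibroblasts, a ratio of 0.509 (0.502 to 0.516), and Ctsf, a cathepsin with a long propeptide, at 17.6 and 30.2 CPM, a ratio of 0.583 (0.545 to 0.625).

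The Ctsk difference was spread over many fibroblasts. The 10 cells richest in Ctsk held 5.73% of its aged and 5.28% of its young UMIs, and the ratio without them was 0.506. With cells thinned to 2000 UMIs, 48.5% (45.9 to 51.1) of aged and 67.6% (65.2 to 70.0) of young fibroblasts had a Ctsk UMI, and unthinned 96.2% and 97.0%. In T/NK cells, which should lack the gene, it was 0 of 34 aged thinned cells, which allows a share of up to 8.82%, and 0.955% of 314 young ones. Median depth was 49794 aged and 41965 young UMIs in fibroblasts, and 7763 and 7333 in T/NK cells. Thinned fibroblasts were also split by a UMI of Acta2 (contractile cells), Crabp1, Coch, Pi16, Cxcl14, Mki67 (dividing cells) or Ifit1 (interferon response). This split was added after the values were seen, and its ratios are of thinned cells. Each marker splits the same cells, so the subsets overlap and do not repeat the result independently. Some are nearly the whole class, as 1444 of 1446 aged thinned fibroblasts had no Coch UMI. In the 13 subsets with at least 20 cells of each age, the Ctsk ratio lay between 0.307 and 0.679 and the upper limit was under 1 in all 13. For Ctsf the upper limit was under 1 in 7 of 13, all 7 being subsets without the marker UMI. Its ratios over the 13 lay between 0.326 and 1.51.

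Other lysosomal genes of fibroblasts differed less. Ctsa, which protects β-galactosidase and neuraminidase, was at 61.2 aged and 86.0 young CPM, a ratio of 0.712 (0.685 to 0.740), and Psap at 332 and 397 CPM, a ratio of 0.836. Npc1, the cholesterol exporter of the lysosomal membrane, had a ratio of 0.740 (0.702 to 0.780) and Atp6v1b2 0.698 (0.669 to 0.728). Glb1, the lysosomal β-galactosidase measured in senescence stains, was at 24.6 and 23.1 CPM, a ratio of 1.07 whose interval from 0.999 to 1.14 includes 1. Lgmn was higher at 91.7 and 73.1 CPM, a ratio of 1.25 (1.21 to 1.30), and 1.18 with TMM scaling.

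Of the genes higher by 1.5-fold in aged fibroblasts, Ctsc no longer passed it without its richest cells, and Atp6v0d2 was found in few cells. Ctsc, a dipeptidyl peptidase that activates granule proteases, was at 44.4 aged and 29.3 young CPM, a ratio of 1.51 (1.43 to 1.60), with 22.8% of aged and 18.3% of young UMIs in 10 cells, and 1.43 without those cells. In the 13 overlapping fibroblast subsets its ratio lay between 0.594 and 3.01, with the lower limit over 1 in 7 and the upper limit under 1 in 0. Of those 7, only the subset with a Cxcl14 UMI held its marker. Atp6v0d2 was at 0.749 and 0.380 CPM, with 96.6% and 96.3% of its 58 and 27 UMIs in 10 cells and a ratio of 0.712 as the mean of cells, and its share of thinned cells was 0 of 1446 aged fibroblasts, which allows up to 0.207%, and 0.0649% of 1542 young ones. Acp5 in fibroblasts was at 22.1 and 31.6 CPM, with a ratio between 0.657 and 0.745, against 58.4 and 33.4 CPM in T/NK cells and 4.46 and 2.55 CPM in endothelial cells.

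**Figure D5:**
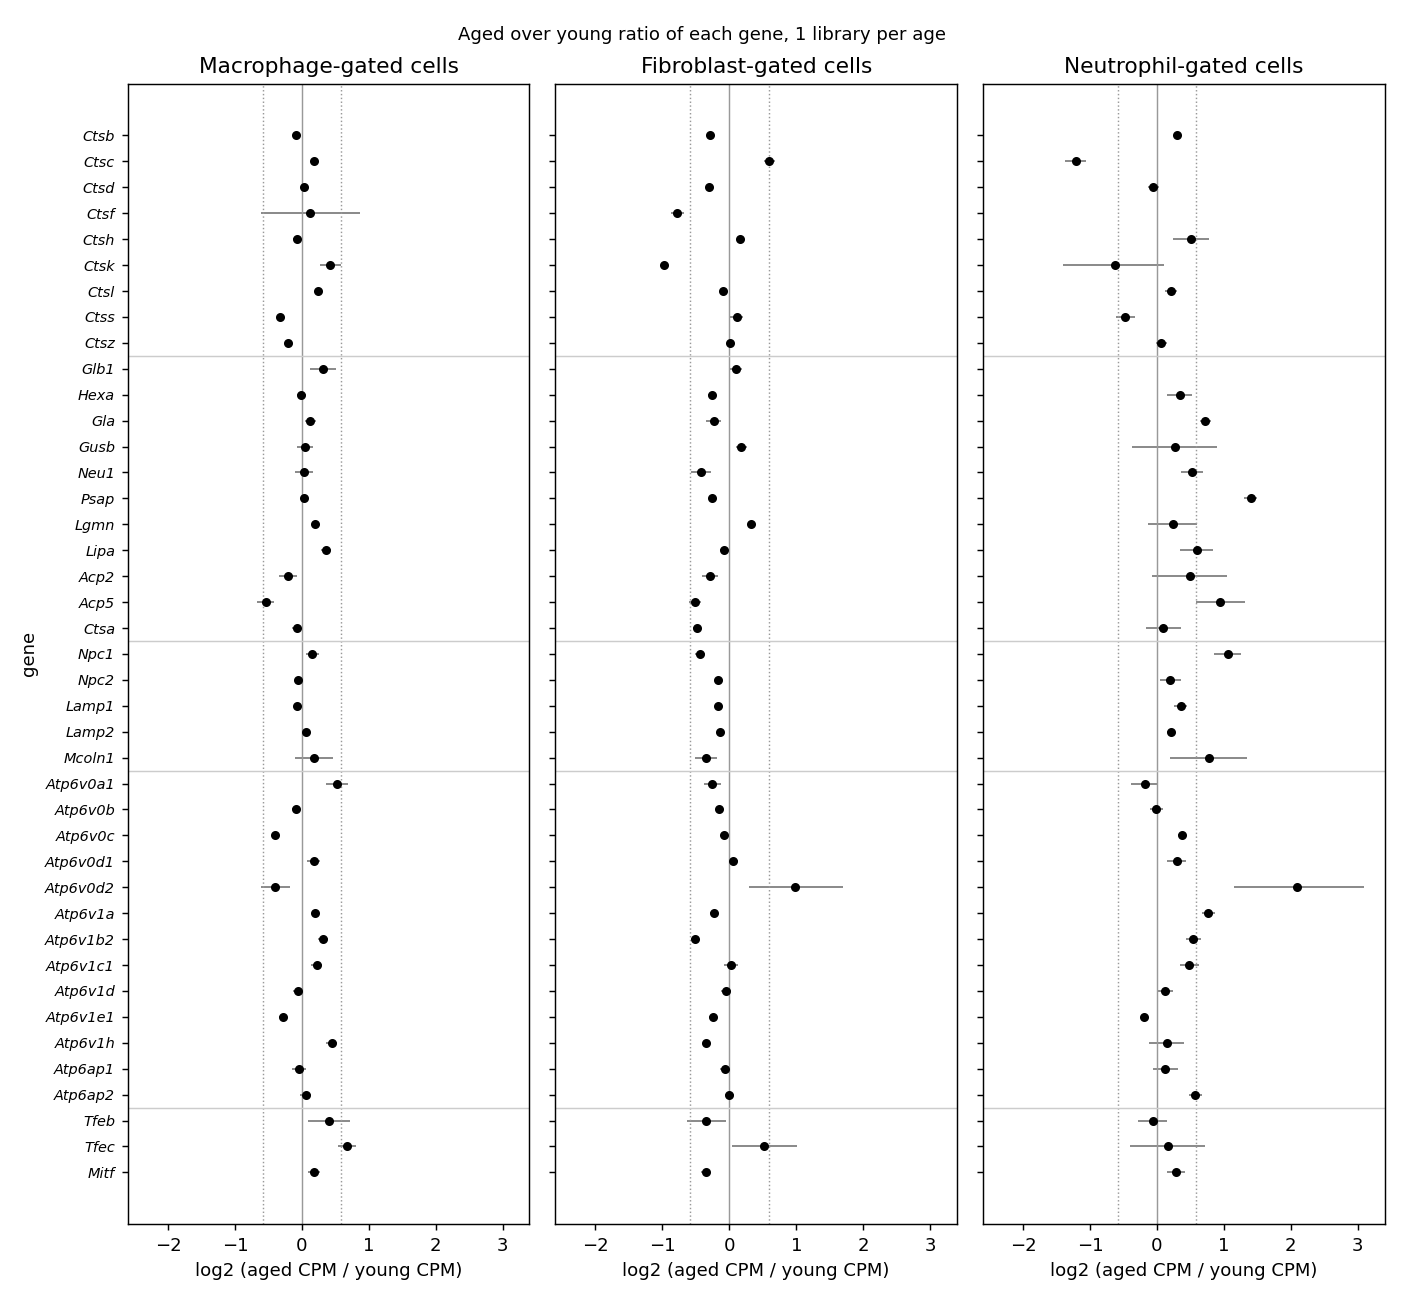
Log2 ratio of aged over young CPM for each gene in macrophages, fibroblasts and neutrophils, with 95% counting intervals and dotted lines at 1.5-fold; genes under 20 UMIs are not drawn. Ctsk and Ctsf lie lowest in fibroblasts at 0.509 and 0.583, Tfec highest in macrophages at 1.60, and Psap at 2.64 and Ctsc at 0.432 in neutrophils.

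In macrophages, 1 of the 41 genes was at least 1.5-fold higher in the aged library and 0 were lower, against 17.0% and 6.89% of all genes. With TMM scaling, which shifts macrophages by -0.19 on the log2 scale, 0 were higher and 1, Acp5, was lower. The median log2 ratio was 0.06, and -0.13 with TMM scaling, so the direction of the group turned with the scaling. The gene higher by 1.5-fold was Tfec, at 97.9 CPM (92.8 to 103) in aged and 61.3 CPM (56.7 to 66.2) in young macrophages, a ratio of 1.60 (1.45 to 1.76) that was 1.40 with TMM scaling. With thinned cells, 16.4% (14.0 to 19.0) of aged and 9.11% (6.81 to 11.9) of young macrophages had a Tfec UMI, and unthinned 47.7% and 44.9%. In thinned T/NK cells the count was 0 of 34 and 0 of 314, which allows up to 8.82% and 0.955%. Thinned macrophages were also split by a UMI of Gpnmb, Mrc1, Ly6c2 or Atp6v0d2, itself a member of the 41. This split was added after the values were seen, and its ratios carry no TMM scaling. There the Tfec ratio was 0.955 (0.499 to 1.82) in cells with a Gpnmb UMI and 2.62 (1.80 to 3.91) in cells without one. The lower limit was over 1 in 5 of the 6 such subsets with at least 20 cells of each age. These subsets overlap, as each marker splits the same cells. Of 886 aged and 538 young thinned macrophages, 867 and 517 had no Atp6v0d2 UMI, and 858 and 529 no Ly6c2 UMI. Ratios in those subsets thus restate that of the class. Its relatives Mitf and Tfeb had ratios of 1.13 and 1.32, or 0.997 and 1.16 with TMM scaling, so the direction of Mitf turned.

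Among the cathepsins of macrophages, some were higher and some lower by less than 1.5-fold. Ctsl was at 3217 aged and 2734 young CPM, a ratio of 1.18 (1.16 to 1.19) that was 1.04 with TMM scaling. Ctss was at 2812 and 3533 CPM, a ratio of 0.796 (0.785 to 0.807), and its ratio lay between 0.680 and 0.834 in the 6 macrophage subsets with at least 20 cells of each age, with the upper limit under 1 in all 6. Some of these overlapping subsets are nearly the whole class. Ctsb had a ratio of 0.938, and Ctsd of 1.02, which turned to 0.899 with TMM scaling. Ctsc had 1.14, and was just under 1 with TMM scaling. Ctsk was at 66.2 and 49.4 CPM, but 10 cells held 52.9% of its aged and 48.6% of its young macrophage UMIs.

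Among the other hydrolases of macrophages, Lgmn had a ratio of 1.15 (1.12 to 1.18), or 1.01 with TMM scaling. In the 6 overlapping subsets of thinned cells its ratio lay between 1.20 and 1.44, with the lower limit over 1 in each. Those ratios carry no TMM scaling, and some of the subsets are nearly the whole class. Lipa was at 276 aged and 214 young CPM, a ratio of 1.29 (1.22 to 1.36), or 1.13 with TMM scaling, and Glb1 at 39.9 and 32.1 CPM, a ratio of 1.24 (1.09 to 1.43), or 1.09 with TMM scaling. Acp5 was at 70.0 and 102 CPM, a ratio of 0.687 (0.630 to 0.750), with 5 of 6 subsets having an upper limit under 1. After thinning, 10.7% of aged and 16.0% of young macrophages had an Acp5 UMI, and unthinned 29.0% and 42.0%. The thinned shares were 11.8% (3.30 to 27.5) on 4 of 34 aged and 6.69% of young T/NK cells, and 1.71% of aged and 1.02% of young neutrophils.

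Subunits of the pump differed in direction in macrophages, also with TMM scaling. Atp6v0a1 was at 64.8 aged and 44.9 young CPM, a ratio of 1.44 (1.29 to 1.62), or 1.27 with TMM scaling, and Atp6v1h, a regulatory V1 subunit, at 252 and 184 CPM, a ratio of 1.36 (1.29 to 1.44), or 1.20 with TMM scaling. Atp6v0c was at 775 and 1023 CPM, a ratio of 0.758 (0.738 to 0.779), and Atp6v1e1, of the V1 stalk, had a ratio of 0.819. None of the 9 genes with GTCACGTG passed 1.5-fold in macrophages or fibroblasts, with macrophage ratios from 0.938 to 1.24. Of all 41 members, 1 was higher and 0 lower in macrophages, against 17.0% and 6.89% of all genes. In fibroblasts 2 were higher and 2 lower, against 11.7% and 8.31% of all genes. With so few members past 1.5-fold, 0 of 9 does not set the genes with the motif apart.

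In monocytes, 4 of 39 measured genes were at least 1.5-fold higher in the aged library and 3 lower, against 29.4% and 5.85% of all genes, and with TMM scaling 2 were higher and 9 lower. TMM scaling shifts every gene of monocytes by -0.33 on the log2 scale, and the shares of all genes are without it. The median log2 ratio was -0.05, and -0.38 with TMM scaling. Ctsz, a cathepsin that binds integrins, was at 355 aged and 548 young CPM, a ratio of 0.648 (0.598 to 0.702), Atp6v0c at 621 and 936 CPM, a ratio of 0.663 (0.624 to 0.705), and Acp2, a lysosomal acid phosphatase, had a ratio of 0.590 (0.432 to 0.796). Lipa had a ratio of 1.72 (1.38 to 2.15) and Glb1 of 1.89 (1.27 to 2.81), and neither passed 1.5-fold with TMM scaling. Atp6v0a1 had 1.91 in the sum but 0.959 as the mean of cells. Ctsk had 2.08, with 81.7% of aged and 53.7% of young UMIs in 10 cells, and 0.821 without them. The neutrophil list summed to 402 aged and 2087 young CPM in monocyte-gated cells, and its part in these ratios was not tested.

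In neutrophils, Psap, Npc1 and Gla were among the genes higher in the aged library and Ctsc was lower, while the share of members past 1.5-fold was close to that of all genes. Of 39 measured genes, 8 were at least 1.5-fold higher and 2 lower, against 24.4% and 9.42% of all genes, and with TMM scaling, which shifts neutrophils by -0.27 on the log2 scale, 4 were higher and 3 lower. Summed over the 11 hydrolases other than cathepsins, aged neutrophils had 1092 CPM and young ones 614 CPM, a ratio of 1.78 (1.72 to 1.84) that was 1.47 with TMM scaling. Of the 10 of these hydrolases measured, 4 passed 1.5-fold, and Psap and Gla held the larger part of the sum. The cathepsin, pump and MiT/TFE sums had ratios of 1.05, 1.16 and 1.14, and each turned below 1 with TMM scaling, at 0.865, 0.956 and 0.940.

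Psap led the neutrophil hydrolases at 396 CPM (379 to 413) in the aged and 150 CPM (143 to 157) in the young library, giving a ratio of 2.64 (2.47 to 2.82) that was 2.18 with TMM scaling and 2.61 without the 10 cells richest in it. After thinning, 38.4% (35.2 to 41.7) of aged and 18.2% (16.1 to 20.4) of young neutrophils had a Psap UMI, against 17.6% and 22.3% of T/NK cells, and unthinned 55.9% and 42.7%. Median depth was 4334 aged and 5626 young UMIs in neutrophils, and 7763 and 7333 in T/NK cells. Npc1 was at 81.9 and 39.3 CPM, a ratio of 2.08 (1.81 to 2.39), and Gla, α-galactosidase A, at 379 and 229 CPM, a ratio of 1.65 (1.56 to 1.75) that was 1.37 with TMM scaling. Atp6v1a, the catalytic V1 subunit, had a ratio of 1.70 (1.59 to 1.83), or 1.41 with TMM scaling.

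Ctsc, which activates the granule proteases of neutrophils, was at 79.1 CPM (71.6 to 87.2) in aged and 183 CPM (175 to 191) in young neutrophils, a ratio of 0.432 (0.388 to 0.482). After thinning, 9.35% of aged and 19.8% of young neutrophils had a Ctsc UMI, and unthinned 15.9% and 38.5%. The thinned shares were 8.82% (1.86 to 23.7) on 3 of 34 aged and 7.01% of young T/NK cells, and 5.46% of aged and 4.02% of young fibroblasts. Acp5 and Atp6v0d2 rested on few cells, with 87.8% of aged and 74.3% of young Acp5 UMIs and 80.0% and 86.7% of the 30 and 15 Atp6v0d2 UMIs in 10 cells. In neutrophils the macrophage list summed to 758 aged and 718 young CPM, the monocyte list to 544 and 1197 CPM, and the neutrophil list itself to 55006 and 90419 CPM. The part of these lists in the ratios was not tested.

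The smaller classes allow less. T/NK cells had 6 genes higher and 9 lower by 1.5-fold of 35 measured, against 25.0% and 20.8% of all genes, and dendritic cells 7 and 8 of 31, against 30.7% and 10.5%. Endothelial cells had 2 higher and 1 lower of 40, against 12.4% and 11.0%. These counts rest on 35 aged T/NK cells, 17 young dendritic cells and 56 aged endothelial cells.

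The rest of the lysosomal pathway was taken from listed genes and counted over all cells, where 11.0% of all genes were higher and 10.5% lower by 1.5-fold in the aged library. Of 28 other hydrolases and activators measured, 0 were higher and 1 lower, of 8 other V-ATPase subunits 0 and 0, of 17 other lysosomal membrane proteins 0 and 2, and of 6 genes of mannose-6-phosphate sorting 0 and 0. Of 5 MiT/TFE partners and of 6 autophagy genes, 0 were higher and 0 lower. The lower membrane genes were Gpnmb at 51.3 aged and 90.9 young CPM, a ratio of 0.565 (0.546 to 0.583), and Mcoln3, a calcium channel, on 8 and 19 UMIs. Of 4 cathepsin inhibitors 2 were lower: Cst7, a cystatin of leukocytes, on 93 and 362 UMIs, a ratio of 0.266 (0.209 to 0.335), and Csta1 on 6 and 93 UMIs. The abundant inhibitors Cst3 and Cstb had ratios of 1.12 and 0.843. Tfe3, the MiT/TFE factor outside the 41, was at 27.9 and 25.8 CPM, a ratio of 1.08.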

How the data were processed

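Wound cells of 1 pooled library per age were analysed from the deposited count tables, whose values are raw UMIs of a gene in a barcode. Per the file headers, they are output of Cell Ranger 8.0.1. Version 9.0 of that program is named in the submitters' processing notes, so the sources differ, beside STAR, the GRCm38/mm10 build and Seurat 4. The aged library held 4379 barcodes and 107865898 UMIs, the young one 4932 and 111810068. Cells with at least 500 UMIs, 200 genes and under 15% mitochondrial UMIs were kept, which left out 138 aged and 212 young barcodes for few genes and 107 and 172 for mitochondrial UMIs. Some barcodes failed both limits and are in both numbers. No doublet caller was run, so doublets remain.

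A cell's score for a marker list was the mean of its markers' log values per 10000 UMIs, each scaled to its 99.9th percentile. The highest of 15 scores over 93 markers gave the class if it was at least 0.15 and led the next by 0.05. The lists hold no lysosomal gene. Of macrophages, 97 aged and 54 young cells, of monocytes 101 and 79, and of fibroblasts 14 and 11 would fail a gate of 0.2 and a lead of 0.1. These values were set with the data in view, and rebuilt classes may differ from those of the study.

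UMIs were summed per class and scaled to CPM of the class. CPM carry exact Poisson intervals, ratios exact conditional binomial intervals and shares exact Clopper-Pearson intervals, all at 95%, for counting error alone. Where a count was 0, the limit printed is 3 counts. Shares, and ratios in subsets split by a marker UMI, were taken after thinning each cell to 2000 UMIs. Ratios were counted past 1.5-fold between ages, among genes with at least 20 UMIs, and past 2-fold in both libraries between classes, among genes with at least 20 UMIs in each library. All members were named by role. In each other list the rule for naming was the 2 highest and 2 lowest ratios of a class, but only some of those genes are named. TMM factors came from edgeR 4.0.16 in R 4.3.3, and the rest from Python 3.11.15 with numpy 2.4.6, scipy 1.17.1 and pandas 2.3.3. The ratios and their intervals were tried on simulated Poisson counts, which hold no variation between cells, mice or libraries. The members and lists were chosen with earlier results of these data known. Alternatives were TMM scaling, gates, cell and gene filters, the mean of cells, and leaving out the deepest cells or those richest in a gene.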

Additional observations from a re-analysis of the deposited data

Results flagged for a closer look

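As sums over a class, some genes were past 1.5-fold between ages in opposite directions in different classes. The difference between classes was not tested, and several of the higher ratios did not hold in alternatives. Acp5 had an aged over young ratio of 1.93 in neutrophils, but 0.918 without its 10 richest cells, and 0.442 in osteoclast-like cells. Ctsc had 1.51 in fibroblasts, or 1.43 without its 10 richest cells, and 0.432 in neutrophils. Ctsk had 2.08 in monocytes, but 0.821 without its 10 richest cells, and 0.509 in fibroblasts. Ctsz had 1.93 in osteoclast-like cells and 0.648 in monocytes. Atp6v0d2 had 1.97 in fibroblasts, but 0.712 as the mean of cells, and 4.27 in neutrophils, against 0.619 in osteoclast-like cells. Of these, Ctsc in neutrophils and Ctsk in fibroblasts rested on many cells, with 153 aged and 526 young neutrophils holding a Ctsc UMI and 1424 aged and 1537 young fibroblasts a Ctsk UMI. Atp6v0d2 UMIs were found in 12 aged and 11 young fibroblasts and in 16 aged and 12 young neutrophils. The ratios in osteoclast-like cells rest on 8 aged cells, 4 of which had no Ctsk or Atp6v0d2 UMI.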

How the results depend on the processing

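No paired analysis was possible because each age has 1 library. Counts of genes past 1.5-fold moved most with TMM scaling: to 0 higher over all cells, 0 higher and 1 lower in macrophages, 2 higher and 9 lower in monocytes, 1 higher and 4 lower in fibroblasts, 4 higher in neutrophils and 9 lower in osteoclast-like cells. No share of all genes is given with TMM scaling to set beside these counts. With the mean of cells, 4 were higher over all cells, 0 higher and 1 lower in macrophages, and 8 lower in osteoclast-like cells. With at least 100 UMIs, 1 was higher in fibroblasts and 1 lower in neutrophils. In macrophages 2 were higher and 1 lower with a looser gate, 1 lower with a stricter gate and 1 lower without the deepest 5% of cells. The counts were within 1.5 times of those reported with no cell filter, a stricter cell filter and no UMI minimum. Counts of osteoclast-like cells over macrophages and of macrophages over fibroblasts were within 1.5 times under both gates. Among ratios past 1.5-fold, the direction turned for Acp5 in neutrophils (0.918) and Ctsk in monocytes (0.821) without the 10 richest cells, and for Atp6v0a1 in monocytes (0.959) and Atp6v0d2 in fibroblasts (0.712) with the mean of cells, and the cause was not tested. Some ratios within 1.5-fold turned too, such as Tfec in neutrophils, 1.12 and 0.755 without 10 cells. Leaving out 10 cells could not be run in osteoclast-like cells, of which 8 were aged. Depth limits genes such as Ctsf in monocytes, with 4 aged and 3 young UMIs.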

Other observations

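Outside the 41, lysosomal membrane genes of neutrophils were often higher in the aged library, and the other lists were close to the share of all genes or mixed. Of 16 other lysosomal membrane genes measured in neutrophils, 8 were at least 1.5-fold higher and 0 lower, and of 24 other hydrolases and activators 7 were higher and 1 lower, against 24.4% and 9.42% of all genes. Of 7 other V-ATPase subunits 1 was higher and 1 lower, of 5 sorting genes 0 and 0, of 2 cathepsin inhibitors 0 and 0, of 5 MiT/TFE partners 2 and 0, and of 6 autophagy genes 1 and 1. Cd63, a tetraspanin of lysosomes and azurophil granules, was at 659 aged and 292 young CPM, a ratio of 2.26 (2.15 to 2.37). Scarb2, the receptor that carries glucocerebrosidase to lysosomes, had a ratio of 2.07 (1.88 to 2.28). Tcirg1, the V0 a3 subunit, had 1.64 (1.35 to 1.99) and Fnip2, a partner of folliculin, 1.74 (1.65 to 1.83). TMM scaling shifts the log2 ratios of neutrophils by -0.27.

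In macrophages 2 of 26 other hydrolases and activators were higher and 0 lower, and of 16 membrane genes 2 and 1, against 17.0% and 6.89% of all genes. Of 7 other V-ATPase subunits 1 was higher and 0 lower, of 5 MiT/TFE partners 1 and 0, and of the sorting genes, cathepsin inhibitors and autophagy genes 0 and 0. Gpnmb was at 161 aged and 266 young CPM, a ratio of 0.605 (0.572 to 0.640), and Flcn, which encodes folliculin, at 44.0 and 24.6 CPM, a ratio of 1.79 (1.54 to 2.08). Tpcn1, an endolysosomal cation channel, had a ratio of 1.79 (1.48 to 2.17), and Cd68, a macrophage lysosomal glycoprotein, of 0.822 (0.795 to 0.850). TMM scaling shifts the log2 ratios of macrophages by -0.19.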
